A study of Mus musculus with 8 samples.

Results

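The 50 genes described here encode developmental transcription factors of neural and mesodermal lineages, genes that are usually bivalent in stem cells. The rule names them by symbol and uses no measured value, and all 50 were found among the 54446 genes of the count tables. Their RNA was measured in the nuclear fraction of C57BL/6 mouse embryonic stem cells, grown in serum with LIF, the GSK3 inhibitor CHIR99021 and the MEK inhibitor PD0325901. There were 4 groups of 2 libraries, namely a Mettl14 control with its Mettl14 cKO and a Mettl3 control with its Mettl3 cKO. The design text calls the cKO cells knockouts. The exons deleted, what drove the deletion, how long after it the cells were taken and whether a line is 1 clone are not stated in the labels. Separate cultures are not stated for the 2 samples of each group, and the p-values therefore reflect the spread among these libraries alone, part of which could be technical.

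METTL14 and the catalytic subunit METTL3 form the enzyme that writes N6-methyladenosine on RNA. In embryonic stem cells the promoters of many developmental regulators carry the active mark H3K4me3 together with the Polycomb mark H3K27me3, a state called bivalent, in which the gene is held at a low level until a lineage is chosen. Such promoters are usually rich in CpG, which recruits both the H3K4 methyltransferases and Polycomb. The factors themselves bind DNA and direct lineage programmes: the SOX, PAX, OLIG and LHX families in neural progenitors, the NEUROG and NEUROD families in the making of neurons, and the TBX, FOXC, MSX, IRX and MEIS families in mesoderm, mesenchyme, heart and limb. Neither histone mark was measured in these libraries, so bivalency is background and not a result.

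Promoter windows from 250 bases before to 50 bases after the start were held by RefSeq (GRCm38.p6) for 37 of the 50 genes. Of these, 28 were CpG-rich, 75.7%, by a GC share of at least 50% and an observed over expected CpG ratio of at least 0.6. The share was 50.2% of the 16514 protein-coding genes with a window and 0.0818% of the 1223 silent receptor genes with one. The median number of CpG per window was 25 in the developmental factors, 15 in all coding genes and 1 in the receptor genes. The windows of 4 genes on which the comparisons turn are shown for their CpG content, with every CG in capitals, 5′ to 3′. They are Sox1 (chr8:12395269-12395568, plus strand, 37 CpG), Olig2 (chr16:91225300-91225599, plus strand, 25 CpG), Twist1 (chr12:33957421-33957720, plus strand, 27 CpG) and Foxc1 (chr13:31806396-31806695, plus strand, 32 CpG).
Sox1: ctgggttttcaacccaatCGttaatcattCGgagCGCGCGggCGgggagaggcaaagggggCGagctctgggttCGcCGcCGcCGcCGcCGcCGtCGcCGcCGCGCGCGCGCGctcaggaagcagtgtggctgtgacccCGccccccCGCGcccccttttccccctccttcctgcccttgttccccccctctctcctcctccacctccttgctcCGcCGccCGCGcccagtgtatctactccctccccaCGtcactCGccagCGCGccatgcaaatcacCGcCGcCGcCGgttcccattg
Olig2: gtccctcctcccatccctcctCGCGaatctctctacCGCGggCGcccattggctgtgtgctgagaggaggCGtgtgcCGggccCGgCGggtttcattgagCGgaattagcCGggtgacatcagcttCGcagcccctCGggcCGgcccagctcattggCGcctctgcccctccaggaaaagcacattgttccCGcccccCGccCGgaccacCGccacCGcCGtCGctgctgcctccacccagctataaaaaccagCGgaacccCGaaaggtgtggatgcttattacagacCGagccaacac
Twist1: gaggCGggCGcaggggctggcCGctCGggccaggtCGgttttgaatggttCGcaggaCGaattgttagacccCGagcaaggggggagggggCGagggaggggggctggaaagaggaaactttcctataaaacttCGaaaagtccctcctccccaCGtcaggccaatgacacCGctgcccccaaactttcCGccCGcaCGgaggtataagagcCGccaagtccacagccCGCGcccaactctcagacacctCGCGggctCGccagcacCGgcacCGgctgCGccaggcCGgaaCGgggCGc
Foxc1: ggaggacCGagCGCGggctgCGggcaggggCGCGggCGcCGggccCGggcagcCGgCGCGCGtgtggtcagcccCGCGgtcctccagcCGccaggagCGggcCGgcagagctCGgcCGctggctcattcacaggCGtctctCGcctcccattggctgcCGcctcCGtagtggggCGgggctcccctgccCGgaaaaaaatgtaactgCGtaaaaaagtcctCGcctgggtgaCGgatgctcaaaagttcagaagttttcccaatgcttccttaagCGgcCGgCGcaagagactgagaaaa
The letters TATAAA, searched on both strands, were found in the Olig2 and Twist1 windows and in 16.2% of the members' windows, against 14.3% of all coding windows. A match of letters is a description and shows no binding.

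Library totals ran from 17235889 to 20086128 reads assigned to genes, and 31803 to 40752 genes had a count in a library, fewest in Mettl14 control and most in Mettl3 control. The targeted RNAs were checked first. Mettl14 RNA was 56.5 ± 2.34 CPM (counts-per-million, SD, n = 2) in its control and 28.9 ± 1.71 with Mettl14 knocked out (log2 fold change -0.96 ± 0.07 SE, edgeR adjusted p = 1.19e-26). In the Mettl3 line Mettl14 RNA was 28.3 ± 2.38 CPM in the control and 29.1 ± 0.605 in cKO, near the level of Mettl14 cKO. Between the controls it differed by 0.99 ± 0.07 (edgeR adjusted p = 1.5e-28), so its level alone does not mark the knockout. Mettl3 RNA was 36.9 ± 1.29 CPM in its control and 19.1 ± 0.892 in Mettl3 cKO (-0.95 ± 0.08, edgeR adjusted p = 1.18e-21). Reads outside the deleted exons count here too, so what RNA remained does not measure the deletion. All 15 stem cell markers were found in every group, summing to 4560 and 4550 CPM in Mettl14 control, with 3500 and 3520 in Mettl14 cKO, 2020 and 2040 in Mettl3 control and 1940 and 1930 in Mettl3 cKO. The 23 fibroblast markers, among them Col1a1, Fn1 and Vim, summed to 4430 and 4420 CPM, 6770 and 6800, 16400 and 16000, and 18400 and 18300 in the same order, and each of them had a count in every group. No feeder layer is named in the labels.

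The developmental factors were measured at low but countable levels (see the plot of reads by library). All 50 had a count in at least 1 library and 44 had a count in all 8. The mean level over all libraries was at least 1 CPM in 27 genes and below 1 CPM in 23. Meis2, a homeodomain partner of HOX and PBX proteins, was highest at 26.8 CPM, followed by the neural progenitor factor Sox1 at 21.4, Olig2 at 13.6, Tbx18 at 12.6, Tbx15 at 12.5 and Meis1 at 11.0 CPM. At the other end Neurog2, a proneural factor, had 0 reads in both Mettl14 control libraries, 1 and 2 in Mettl14 cKO, 1 and 4 in Mettl3 control and 0 and 1 in Mettl3 cKO.

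**Figure D1:**
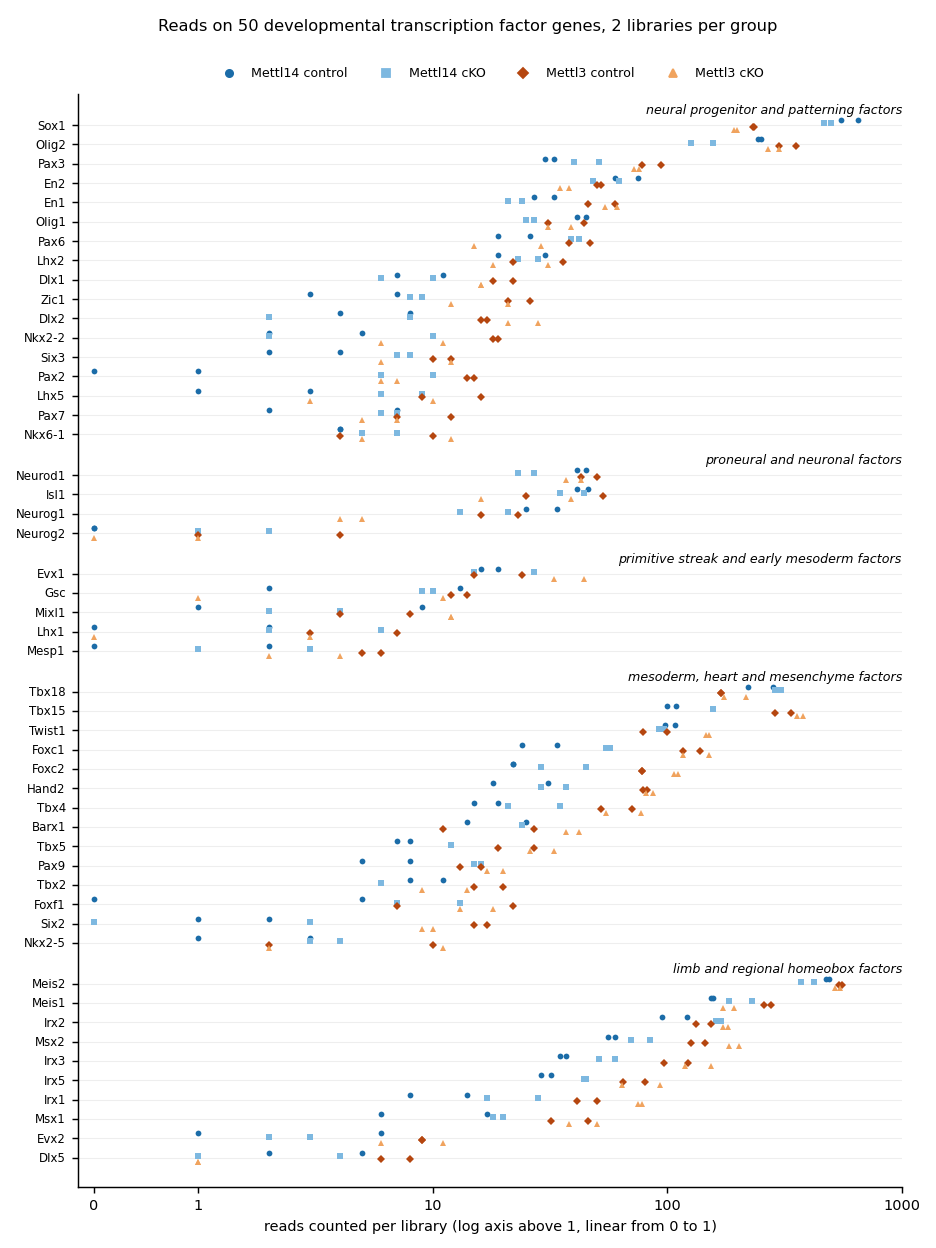
Reads counted per library for the 50 developmental transcription factor genes, grouped by role, on an axis that is logarithmic above 1 and linear from 0 to 1; each point is 1 library and colours and shapes give the 4 groups. Meis2, Sox1 and Olig2 have 126 to 652 reads per library, and Neurog2, Mesp1 and Lhx1 have 0 to 7.

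Genes for olfactory and vomeronasal receptors, which are mostly silent outside sensory neurons, served as the background of genes taken to be off. Over all libraries the 95th percentile of the 1457 receptor genes was 0.114 CPM per kb of exon, with a median of 0.031. Above it lay 42 of the 50 factors, and 8 lay at or below it: Six3, Pax2, Pax7, Nkx6-1, Evx2, Dlx5, Lhx1 and Neurog2. Per kb of exon, Sox1 had 4.43 CPM, Olig2 5.38 and Twist1 3.67, while Pax6, the eye and forebrain factor, had 0.147 and Six3, a forebrain and eye factor, 0.0741.

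The silent background was not the same in the 4 groups. Reads on the receptor genes summed to 108 and 121 CPM in Mettl14 control, with 175 and 188 in Mettl14 cKO, 410 and 416 in Mettl3 control and 242 and 232 in Mettl3 cKO. Of the 211 receptor genes that passed the filter on low counts, 19 were called higher and 2 lower in Mettl14 cKO, and 0 higher and 34 lower in Mettl3 cKO. The groups did not overlap, and the log2 ratio of mean sums was 0.67 for Mettl14 cKO against its control, -0.80 for Mettl3 cKO against its control and -1.85 between the controls. Measured against the 95th percentile of the receptors within the same group, 40 factors lay above it in Mettl14 control (0.0601 CPM per kb), 36 in Mettl14 cKO (0.098), 37 in Mettl3 control (0.192) and 42 in Mettl3 cKO (0.119). The 23 factors below 1 CPM summed to 7.85 and 7.08 CPM in Mettl14 control, with 8.46 and 7.99 in Mettl14 cKO, 14.6 and 14.5 in Mettl3 control and 12.2 and 12.2 in Mettl3 cKO. Their sums thus had the same order of groups as the receptors, with log2 ratios of 0.14, -0.25 and -0.96. The 27 factors of at least 1 CPM had other ratios, -0.24, 0.15 and 0.04. What the silent background contributes to the reads of a low factor was not tested.

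Of the 50 factors, 44 passed the filter on low counts and were tested, and Pax7, Evx2, Dlx5, Lhx1, Mesp1 and Neurog2 were not. Calls rest on edgeR's quasi-likelihood test, with p-values adjusted by Benjamini and Hochberg's method over the 21782 genes tested and a threshold of 0.05. At least 1 comparison called 32 of the factors. A knockout comparison called 19, and 13 were called between the controls and in neither knockout. Such counts across comparisons were not made for all genes, so they are no result about the factors. Between the controls alone 33.6% of all genes tested were called higher and 34.1% lower. The shares were 18.0% and 22.4% in Mettl14 cKO and 15.1% and 5.78% in Mettl3 cKO.

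In Mettl14 cKO the neural factors Olig2, Sox1, Olig1, Neurod1, Neurog1 and En2 were lower than in the control, with Meis2, and 4 factors were higher: Foxc1, Tbx15, Irx2 and Pax2. This comparison asks what loss of METTL14 does to nuclear RNA. Of the 44 factors tested, 4 were called higher and 7 lower, against 18.0% and 22.4% of all genes tested. The median log2 fold change was 0.18 in the factors and 0.03 in all genes tested. Among the 22 tested factors with an average log2 CPM below 1, 1 was called higher and 1 lower, where 8.37% and 2.47% of such genes were called. In these bulk libraries fewer cells of a type and less RNA per cell cannot be told apart.

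Olig2, a bHLH factor of motor neuron and oligodendrocyte precursors, had 250 and 244 reads in Mettl14 control, 126 and 157 in Mettl14 cKO, 299 and 352 in Mettl3 control and 298 and 269 in Mettl3 cKO. The Mettl14 cKO libraries were the lowest of all 8. The level was 15.6 ± 0.481 CPM in the Mettl14 line's control and 7.55 ± 0.761 in its cKO (SD, n = 2), a log2 fold change of -1.04 ± 0.12 (SE, edgeR adjusted p = 3.16e-13). Its neighbour Olig1, 41.1 kb away, had 45 and 41 reads in Mettl14 control, with 27 and 25 in Mettl14 cKO (-0.96 ± 0.30, edgeR adjusted p = 0.00511). In the Mettl3 line Olig1 had 31 and 44 reads in the control and 39 and 31 in cKO, and those ranges overlapped.

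Sox1, a SOXB1 factor of neural progenitors, had 550 and 652 reads in Mettl14 control, 464 and 499 in Mettl14 cKO, 231 and 235 in Mettl3 control and 193 and 198 in Mettl3 cKO. Its level fell from 38.0 ± 4.04 to 25.8 ± 0.0819 CPM in the Mettl14 line (-0.56 ± 0.08, edgeR adjusted p = 1.54e-09). Mettl14 cKO still had more Sox1 RNA than either Mettl3 group. Meis2 had 491 and 476 reads in Mettl14 control, 373 and 423 in Mettl14 cKO, 554 and 537 in Mettl3 control and 519 and 544 in Mettl3 cKO. Its level was 30.6 ± 1.09 CPM in the control of that line and 21.3 ± 0.731 in its cKO, the lowest of the 4 groups (-0.52 ± 0.08, edgeR adjusted p = 1.8e-08).

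The proneural bHLH factors had few reads. Neurod1, which drives neuronal differentiation, had 41 and 45 reads in Mettl14 control, 23 and 27 in Mettl14 cKO, 43 and 50 in Mettl3 control and 43 and 37 in Mettl3 cKO. Its 4 counts in the Mettl14 line did not overlap, and the fold change was -1.02 ± 0.29 (edgeR adjusted p = 0.00255). Neurog1, a factor of sensory neurogenesis, had 25 and 34 reads in Mettl14 control, with 13 and 21 in Mettl14 cKO (-1.03 ± 0.38, edgeR adjusted p = 0.022). En2, a factor of the midbrain and hindbrain border, had 60 and 75 reads against 48 and 62 (-0.54 ± 0.23, edgeR adjusted p = 0.0474), with CPM of 4.26 ± 0.612 and 2.93 ± 0.37.

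**Figure D2:**
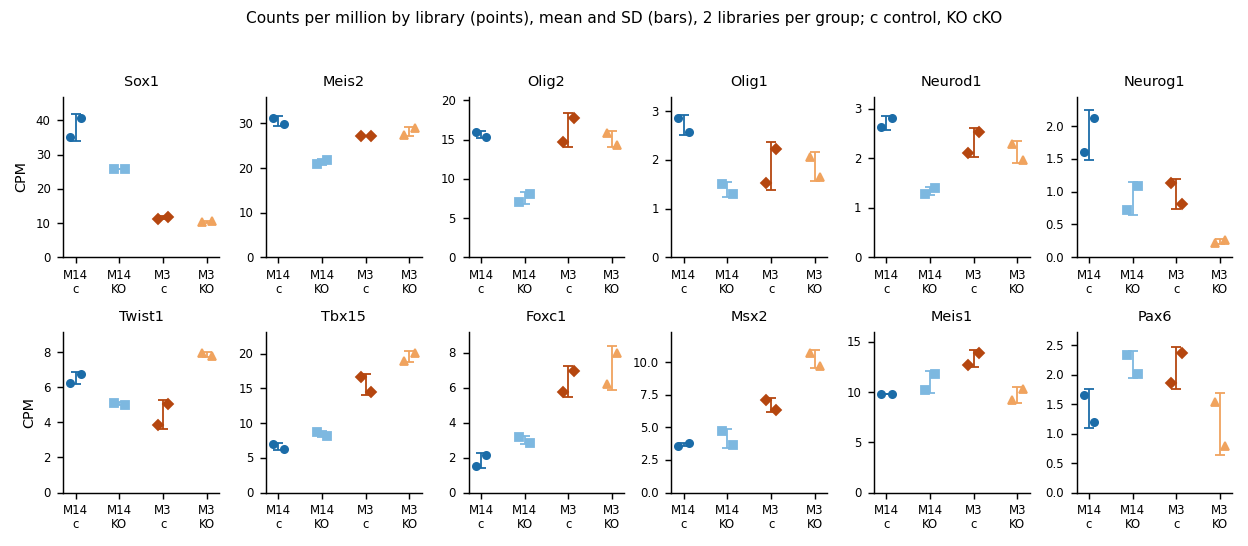
CPM in each library (points) with mean and SD (bars, n = 2) for 12 factors called in a knockout comparison; M14 is Mettl14, M3 is Mettl3, c is control and KO is cKO. Olig2, Olig1, Neurod1 and Meis2 are lowest or near lowest in Mettl14 cKO, and Twist1 and Msx2 are highest in Mettl3 cKO.

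Among the factors that rose in Mettl14 cKO, Foxc1, a forkhead factor of mesoderm and vessels, had 24 and 34 reads in Mettl14 control, 57 and 55 in Mettl14 cKO, 117 and 138 in Mettl3 control and 117 and 150 in Mettl3 cKO. Its level rose from 1.83 ± 0.422 to 3.00 ± 0.24 CPM (0.71 ± 0.26, edgeR adjusted p = 0.0183) and stayed below that of both Mettl3 groups, 6.35 ± 0.868 and 7.09 ± 1.26 CPM. Tbx15, a T-box factor of limb and skin mesenchyme, had 109 and 100 reads in Mettl14 control, 157 and 157 in Mettl14 cKO, 338 and 287 in Mettl3 control and 358 and 378 in Mettl3 cKO. Its rise was 0.35 ± 0.14 (edgeR adjusted p = 0.0397). Irx2, an Iroquois homeobox factor, had 95 and 121 reads in Mettl14 control, with 162 and 170 in Mettl14 cKO (0.38 ± 0.15, edgeR adjusted p = 0.0287). Pax2, a factor of kidney and of the midbrain and hindbrain border, had 0 and 1 reads in Mettl14 control, 6 and 10 in Mettl14 cKO, 14 and 15 in Mettl3 control and 7 and 6 in Mettl3 cKO. The ratio of 16 to 1 reads in the Mettl14 line was 13.5 after scaling (95% exact interval 2.1 to 568, for counting error only; edgeR adjusted p = 0.00646).

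By role, 4 of the 16 tested neural progenitor and patterning factors were called lower in Mettl14 cKO and 1 higher, 2 of the 3 tested proneural and neuronal factors were lower, and 2 of the 14 factors of mesoderm, heart and mesenchyme were higher. Of the 8 tested limb and regional homeobox factors, 1 was higher and 1 lower, and none of the 3 tested primitive streak factors was called. These small counts stand beside 18.0% of all genes tested called higher and 22.4% called lower. The 17 neural progenitor genes together had 66.8 and 72.8 CPM in Mettl14 control, with 48.0 and 48.4 in Mettl14 cKO. Sox1 and Olig2 made up most of that sum. Of the 22 tested fibroblast markers, 17 were called higher in Mettl14 cKO and 0 lower, with a median of 1.01, and Col1a2 rose by 1.54 ± 0.03 on the log2 scale (edgeR adjusted p = 1.12e-89). Of 15 stem cell markers, 13 were lower and 1 higher. With tested genes split into 10 bins by abundance, 65.1% to 83.2% of all genes in the top 3 bins were called in either direction in Mettl14 cKO. Counts among abundant markers have to be read against those shares. The part of these marker shifts in the factors' changes was not tested.

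The calls of Olig2, Sox1, Meis2 and Neurod1 held under all 16 alternatives of scaling, filter, tool and left-out library. DESeq2 called 0 of the factors higher and 5 lower, and it gave no adjusted p for Pax2; it ended the calls of En2, Foxc1, Irx2, Neurog1 and Tbx15. En2, Irx2 and Tbx15 were also lost with no filter on low counts, En2 with upper-quartile scaling and a mean count filter, and Tbx15 with RLE scaling and limma-voom. Without the first Mettl14 control library the adjusted p was 0.236 for Foxc1 (log2 fold change 0.49), 0.355 for Irx2 (0.23), 0.0572 for Olig1 (-0.88), 0.0863 for Pax2 and 0.059 for Tbx15 (0.42). Without the second control library it was 0.331 for En2 (-0.38), 0.21 for Neurog1 (-0.81) and 0.243 for Tbx15 (0.27). Without the first Mettl14 cKO library it was 0.106 for Foxc1 (0.64), 0.104 for Irx2 (0.37), 0.2 for Neurog1 (-0.77), 0.265 for En2 (-0.41) and 0.176 for Tbx15 (0.30). Without the second it was 0.0669 for Olig1 (-0.85), 0.0775 for Irx2 (0.40), 0.0619 for En2 (-0.67), 0.0593 for Pax2 and 0.0571 for Tbx15 (0.40).

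In Mettl3 cKO Twist1, Msx2, Irx1, Barx1, Tbx15, Evx1, Foxc2 and Irx2 were higher than in Mettl3 control, and Meis1, Neurog1 and Pax6 were lower. Of 44 factors, 8 were called higher and 3 lower, against 15.1% and 5.78% of all genes tested. The median was 0.16 in the factors and 0.03 in all genes. Of the 22 tested factors with an average log2 CPM below 1, 2 were higher and 2 lower, where 0.647% and 5.58% of such genes were called. With upper-quartile scaling 5 factors were called higher and 3 lower, while calls over all genes went from 3292 higher and 1260 lower to 1293 and 2771 and the median of all genes from 0.03 to -0.09.

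Twist1, a bHLH factor of mesenchyme and neural crest, had 79 and 100 reads in Mettl3 control, 150 and 146 in Mettl3 cKO, 98 and 108 in Mettl14 control, with 92 and 97 in Mettl14 cKO. Its level rose from 4.46 ± 0.83 to 7.86 ± 0.131 CPM (0.82 ± 0.16, edgeR adjusted p = 3.33e-05), above every other library. Msx2, a homeobox factor of skull, limb and neural crest, had 145 and 126 reads in Mettl3 control, 202 and 183 in Mettl3 cKO, 56 and 60 in Mettl14 control, with 84 and 70 in Mettl14 cKO. It rose from 6.74 ± 0.531 to 10.2 ± 0.688 CPM (0.60 ± 0.14, edgeR adjusted p = 0.000695), and the Mettl3 groups did not overlap.

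Tbx15 rose from 15.5 ± 1.48 to 19.5 ± 0.798 CPM in Mettl3 cKO (0.33 ± 0.10, edgeR adjusted p = 0.00907). Irx2 had 154 and 133 reads in Mettl3 control and 173 and 181 in Mettl3 cKO (0.40 ± 0.14, edgeR adjusted p = 0.0269). These were called higher in both knockouts, each against its own control. Irx1, which lies 665 kb from Irx2, had 41 and 50 reads in Mettl3 control, 78 and 75 in Mettl3 cKO, 14 and 8 in Mettl14 control, with 17 and 28 in Mettl14 cKO, and its rise was 0.84 ± 0.24 (edgeR adjusted p = 0.00655). Foxc2, a forkhead factor of mesoderm and lymphatic vessels, had 78 and 78 reads against 107 and 111 (0.58 ± 0.19, edgeR adjusted p = 0.0204), and 22 and 22 against 29 and 45 in the Mettl14 line, which was not called (0.51 ± 0.30, edgeR adjusted p = 0.175).

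Barx1 and Evx1 had few reads. Barx1, a homeobox factor of stomach mesenchyme and teeth, had 11 and 27 reads in Mettl3 control and 37 and 42 in Mettl3 cKO (1.14 ± 0.34, edgeR adjusted p = 0.00868), with 14 and 25, then 24 and 24, in the Mettl14 line. The control libraries differed from each other by more than the cKO libraries did. Evx1, a homeobox factor of the primitive streak and of spinal interneurons, had 24 and 15 reads in Mettl3 control and 44 and 33 in Mettl3 cKO (1.07 ± 0.34, edgeR adjusted p = 0.0143). It shares 73 exon bases with its antisense neighbour Evx1os, measured at 1.47 CPM, and whether the reads were counted by strand is not stated in the labels.

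Of the factors that fell in Mettl3 cKO, Meis1, a homeodomain partner of HOX proteins, had 258 and 276 reads in Mettl3 control, 173 and 193 in Mettl3 cKO, 154 and 157 in Mettl14 control, with 183 and 229 in Mettl14 cKO. Its level went from 13.3 ± 0.904 to 9.72 ± 0.775 CPM (-0.45 ± 0.12, edgeR adjusted p = 0.00206). Mettl3 control was the highest group. Neurog1 had 23 and 16 reads in Mettl3 control and 4 and 5 in Mettl3 cKO (-1.99 ± 0.53, edgeR adjusted p = 0.00273), and it was called lower in both knockouts, each against its own control. Pax6 had 38 and 47 reads in Mettl3 control, 29 and 15 in Mettl3 cKO, 26 and 19 in Mettl14 control, with 42 and 39 in Mettl14 cKO (-0.85 ± 0.32 in Mettl3 cKO, edgeR adjusted p = 0.0408).

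By role, 4 of the 14 mesoderm, heart and mesenchyme factors were called higher in Mettl3 cKO and 0 lower. Of the 8 tested limb and regional homeobox factors, 3 were higher and 1 lower, 1 of the 16 neural progenitor factors was lower, 1 of the 3 proneural factors was lower, and 1 of the 3 streak factors, Evx1, was higher. These small counts stand beside 15.1% of all genes tested called higher and 5.78% called lower. The 14 mesenchyme genes had 50.4 and 52.0 CPM in Mettl3 control and 62.6 and 68.4 in Mettl3 cKO. Of the 22 tested fibroblast markers, 10 were higher and 2 lower in Mettl3 cKO with a median of 0.10, and for 15 of them the change was higher in the Mettl14 line by the test of the difference. Fbln2 rose by 0.34 ± 0.02 (edgeR adjusted p = 1.02e-24) and Col1a1 by 0.28 ± 0.02 (edgeR adjusted p = 2.4e-23). Others went down, such as Acta2 from 324 ± 1.00 to 293 ± 0.223 CPM and Col3a1 from 200 ± 1.67 to 179 ± 1.82 CPM, and 10 of the 22 were not called. In the top 3 of 10 bins of abundance, 34.6% to 52.7% of all genes were called in either direction in Mettl3 cKO. The part of the fibroblast marker changes in the 4 calls of mesenchyme factors was not tested.

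Twist1 and Msx2 were called under all 16 alternatives. DESeq2 called 2 factors higher and 1 lower, and gave no adjusted p for 6 of the 11: Foxc2, Irx1, Barx1, Evx1, Neurog1 and Pax6. Without the first Mettl3 control library the adjusted p was 0.294 for Barx1 (log2 fold change 0.62), 0.0971 for Foxc2 (0.56), 0.0996 for Irx1 (0.69) and 0.0518 for Neurog1 (-1.73). Without the second it was 0.176 for Evx1 (0.80), 0.0685 for Foxc2 (0.60), 0.195 for Irx2 (0.32), 0.0508 for Meis1 (-0.38), 0.254 for Pax6 (-0.67) and 0.164 for Tbx15 (0.24). Without the first Mettl3 cKO library it was 0.183 for Evx1 (0.85), 0.0686 for Foxc2 (0.60), 0.0545 for Irx1 (0.81), 0.065 for Irx2 (0.43) and 0.0639 for Meis1 (-0.37). Without the second it was 0.0811 for Barx1 (1.05), 0.106 for Foxc2 (0.55), 0.137 for Irx2 (0.37), 0.461 for Pax6 (-0.45) and 0.0977 for Tbx15 (0.29). Pax6 was also lost without either Mettl14 cKO library, at 0.0537 and 0.0517. Upper-quartile scaling ended the calls of Foxc2, Irx2 and Tbx15, DESeq2 those of Irx2 and Tbx15, a fit of the Mettl3 libraries alone those of Irx2 and Pax6, and no filter on low counts that of Pax6.

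**Figure D3:**
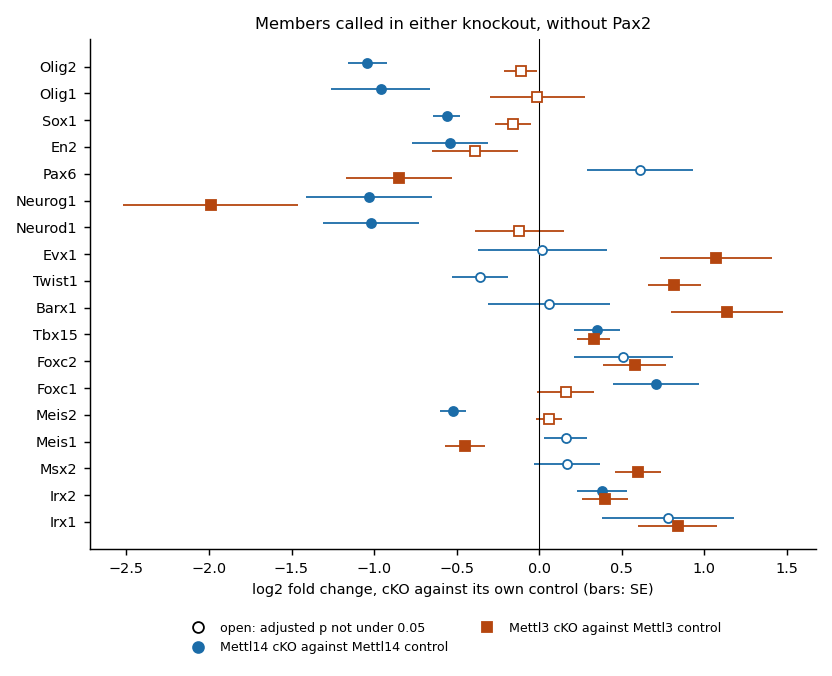
Log2 fold change with SE bars in Mettl14 cKO (circles) and Mettl3 cKO (squares), each against its own control, for the factors called in either knockout; Pax2, which has 1 read in Mettl14 control, is left out. Filled symbols have an adjusted p under 0.05. Tbx15, Irx2 and Neurog1 are filled in both and lie on the same side, and Twist1 and Meis2 have changes on opposite sides.

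The change in the Mettl14 line minus the change in the Mettl3 line was tested directly. It was called for 7 of the 44 factors, 3 higher and 4 lower, against 12.7% and 20.5% of all genes tested. Below an average log2 CPM of 1, 2 of the 22 were called higher and 0 lower, against 11.7% and 0.789% of such genes. The median was -0.02 in the factors and 0.02 in all genes. With upper-quartile scaling all genes went from 2777 higher and 4461 lower to 4287 and 2788, and the median of all genes to 0.17. The 4 lower were Twist1 (-1.18 ± 0.24, edgeR adjusted p = 1.58e-05), Olig2 (-0.94 ± 0.16, edgeR adjusted p = 3.93e-07), Meis2 (-0.58 ± 0.11, edgeR adjusted p = 6.88e-06) and Sox1 (-0.40 ± 0.14, edgeR adjusted p = 0.0165). The 3 higher were Meis1 (0.62 ± 0.17, edgeR adjusted p = 0.00267), Pax6 (1.46 ± 0.45, edgeR adjusted p = 0.00645) and Pax2 (edgeR adjusted p = 0.00221). Among the 211 tested receptor genes the same test called 58 higher and 0 lower, with a median of 1.85.

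The factors with a tested difference had distinct shapes across the groups. For Olig2 and Meis2 the Mettl14 cKO libraries were low while the Mettl3 groups differed by less than the SE or about as much as it, -0.11 ± 0.10 and 0.06 ± 0.08. Twist1 was not called in Mettl14 cKO (-0.36 ± 0.17, edgeR adjusted p = 0.082), and its called rise was in Mettl3 cKO. Pax6 and Meis1 had changes of opposite sign, of which only the falls in Mettl3 cKO were called. The difference for Sox1 was lost without Mettl14 control library 2 (-0.29, edgeR adjusted p = 0.151), Mettl3 control library 1 (-0.36, 0.061) and Mettl3 cKO library 2 (-0.38, 0.0626), and that for Pax6 without Mettl14 control library 2 (1.24, 0.0521) and Mettl3 cKO library 2 (1.07, 0.0806). DESeq2 did not call the differences of Sox1, Meis1 and Pax6, and upper-quartile scaling ended that of Sox1 (-0.24). Differences between the changes of Olig1, Neurod1, Barx1 and Evx1, called in 1 knockout each, were not called (edgeR adjusted p = 0.066, 0.0732, 0.0931 and 0.111). The same held for Foxc1 (0.55), Msx2 (-0.43), En2 (-0.15), Foxc2 (-0.07) and Irx1 (-0.06), with edgeR adjusted p of 0.166, 0.178, 0.783, 0.908 and 0.949. Their calls in 1 knockout therefore do not show a change particular to it.

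The controls of the lines differed in more of the factors than either knockout from its control. Of the 44 tested, 6 were higher in Mettl14 control than in Mettl3 control and 19 lower, against 33.6% and 34.1% of all genes. The median was -0.80 in the factors and -0.09 in all genes. Of the 22 factors with an average log2 CPM below 1, 1 was higher and 8 were lower, where 7.09% and 44.5% of such genes were called. With upper-quartile scaling 3 factors were higher and 24 lower, all genes went from 7329 higher and 7430 lower to 5642 and 9450, and their median went to -0.31. This comparison uses the same control libraries as the knockout comparisons, and line and any difference in handling cannot be told apart.

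Higher in Mettl14 control was Sox1, at 38.0 ± 4.04 CPM against 11.6 ± 0.377 in Mettl3 control (1.71 ± 0.09, edgeR adjusted p = 7.41e-38). Tbx18, a T-box factor of the epicardium and somites, had 221 and 283 reads in Mettl14 control, 287 and 305 in Mettl14 cKO, 170 and 169 in Mettl3 control and 175 and 216 in Mettl3 cKO (0.92 ± 0.12 between controls, edgeR adjusted p = 1.7e-11). It was called in neither knockout, but in Mettl3 cKO (0.30 ± 0.13, edgeR adjusted p = 0.0772) it was called with no filter on low counts (0.41, edgeR adjusted p = 0.00975) and without Mettl3 cKO library 1 (0.45, edgeR adjusted p = 0.0257). The difference between the changes of Tbx18 passed the threshold without Mettl14 control library 1 (-0.46, edgeR adjusted p = 0.0499). En2 (0.75 ± 0.23), Twist1 (0.55 ± 0.17), Neurog1 (0.94 ± 0.37) and Meis2 (0.17 ± 0.08) were also called higher, with edgeR adjusted p of 0.00264, 0.00384, 0.0212 and 0.0425.

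Lower in Mettl14 control were mostly factors of mesenchyme, heart and limb. Tbx15 was at 6.61 ± 0.492 CPM against 15.5 ± 1.48 (-1.23 ± 0.13, edgeR adjusted p = 1.16e-16) and Foxc1 at 1.83 ± 0.422 against 6.35 ± 0.868 (-1.79 ± 0.22, edgeR adjusted p = 1.84e-12). Irx3 had 2.28 ± 0.0584 CPM against 5.47 ± 0.803 (-1.26 ± 0.22), Foxc2 1.39 ± 0.019 against 3.88 ± 0.0791 (-1.48 ± 0.26), and Hand2, a bHLH factor of heart and limb, 1.55 ± 0.56 against 4.01 ± 0.0239 (-1.37 ± 0.26). Their edgeR adjusted p were 1.28e-07, 2.56e-07 and 1.29e-06. Hand2 shares 461 exon bases with its antisense neighbour Hand2os1, at 1.98 CPM. Tbx4, the hindlimb T-box factor, was at 1.08 ± 0.193 CPM against 3.05 ± 0.606 (-1.50 ± 0.31, edgeR adjusted p = 7.07e-06), Msx2 at -0.88 ± 0.18 on the log2 scale, Irx1 at -1.69 ± 0.35 and the neural crest and muscle factor Pax3 at -1.10 ± 0.24 (edgeR adjusted p = 8.06e-06, 1.14e-05 and 2.28e-05).

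Six2, a factor of nephron progenitors, had 1 and 2 reads in Mettl14 control, 0 and 3 in Mettl14 cKO, 15 and 17 in Mettl3 control and 9 and 10 in Mettl3 cKO. The ratio of Mettl3 control to Mettl14 control was 8.4 (95% exact interval 2.63 to 42.8, counting error only), and that of Pax2 was 22.8 (3.78 to 932). Both Mettl14 groups were near 0 for Six2. Between the controls 33.6% of all genes tested were called higher in Mettl14 control and 34.1% lower. Of the 14 mesoderm, heart and mesenchyme factors, 8 were lower in Mettl14 control and 2 higher. Of the 8 tested limb and regional factors, 6 were lower and 1 higher, and of the 16 neural progenitor factors 5 were lower and 2 higher. Beside these, 21 of the 22 tested fibroblast markers were lower in Mettl14 control and 0 higher, with a median of -2.16, 14 of the 15 stem cell markers were higher, and 173 of the 211 tested receptor genes were called lower and 6 higher, with a median of -2.38. The part of these shifts in the factors' differences was not tested. In the top 3 of 10 bins of abundance, 83.3% to 93.9% of all genes were called in either direction between the controls.

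Some calls between the controls rested on 1 library or 1 setting. Upper-quartile scaling ended those of Twist1, Neurog1 and Meis2, DESeq2 those of Foxf1, Lhx5, Tbx5, Neurog1 and Meis2, and no filter on low counts that of Tbx5. Without Mettl14 control library 2 the adjusted p was 0.0704 for En2 (log2 fold change 0.59), 0.194 for Neurog1 (0.72), 0.189 for Foxf1 (-1.16), 0.109 for Lhx5 (-1.66), 0.0784 for Tbx5 (-1.16) and 0.0512 for Zic1 (-1.37). Without Mettl14 control library 1 it was 0.0761 for Msx1 (-0.86) and 0.0733 for Nkx2-2 (-1.54). Without Mettl3 control library 1 it was 0.111 for Twist1 (0.36) and 0.116 for Lhx5 (-1.80), and without Mettl3 control library 2 it was 0.149 for Neurog1 (0.71), 0.332 for Foxf1 (-1.09) and 0.128 for Tbx5 (-0.97). Meis2 was called under 4 of 15 alternatives only, and its adjusted p was over 0.05 without any of the 8 libraries but Mettl14 cKO library 2, between 0.0505 and 0.223.

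**Figure D4:**
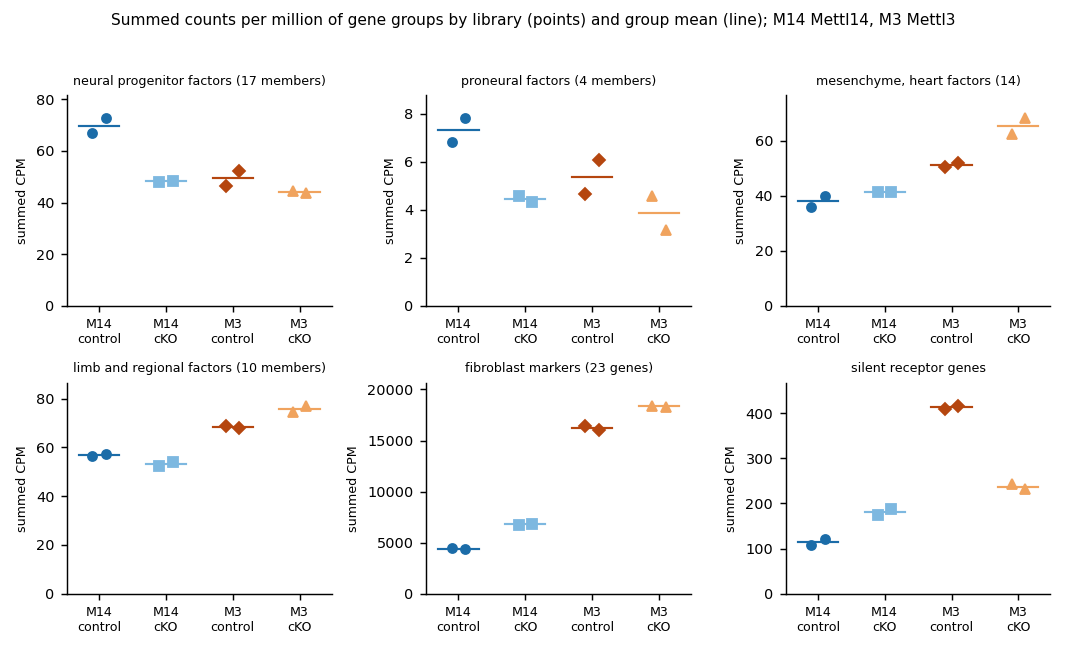
Summed CPM per library (points) with the group mean (lines) for 4 role groups of the factors, the fibroblast markers and the silent receptor genes; M14 is Mettl14 and M3 is Mettl3, and each axis starts at 0. The neural progenitor sum is highest in Mettl14 control, at 66.8 and 72.8, and the mesenchyme and fibroblast sums are highest in Mettl3 cKO, while the receptor sum is highest in Mettl3 control, at 410 and 416.

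Fold change depended on abundance in all genes, and the low factors have to be read against that trend. Tested genes were split into 10 bins of equal size by abundance. In the lowest bin the median log2 fold change was 0.68 in Mettl14 cKO, -0.57 in Mettl3 cKO and -1.79 between the controls, and that bin held 7 of the factors. From the fifth bin up the medians were between -0.17 and 0.11 in both knockouts. The 8 most abundant factors lay in that range of abundance, and the falls of Olig2, Sox1 and Meis2 in Mettl14 cKO, -1.04, -0.56 and -0.52, stand beside those medians. Counted over all 50 factors without a test, the 2 libraries of Mettl14 cKO lay above both controls in 18 factors and below both in 11, against 22.1% and 16.6% of all genes. For Mettl3 cKO these were 16 and 12, against 16.8% and 19.9%, and between the controls 8 and 30, against 17.8% and 36.0%. Here all genes are the 54446 of the count tables, of which 48000 had a count. Genes without a count cannot lie apart, and all 50 factors had a count. The shares are therefore of an unlike base, and no excess in the factors can be read from them.

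**Figure D5:**
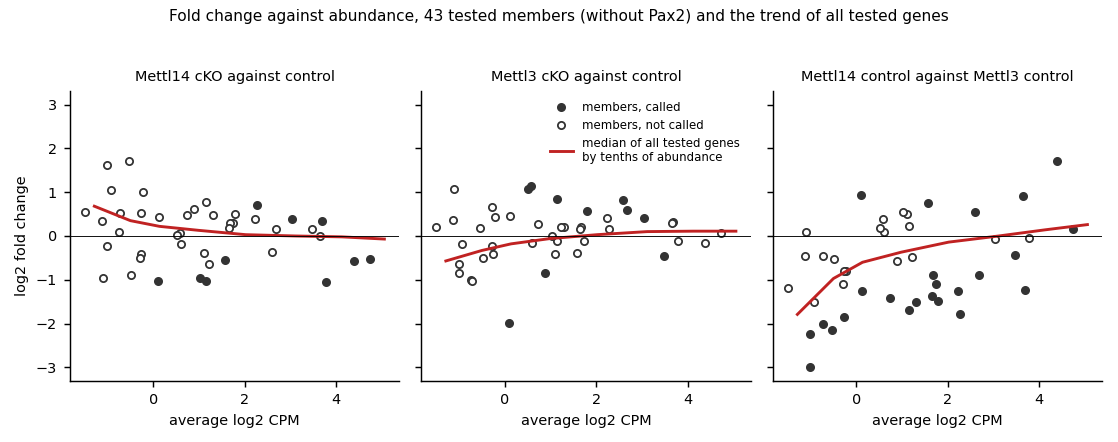
Log2 fold change against average log2 CPM for 43 tested factors, without Pax2, in 3 comparisons; filled points are called, and the line joins the medians of all tested genes in 10 bins of abundance, drawn for the lowest 8 bins, which hold all tested factors. In Mettl14 cKO the line runs from 0.68 at the low end to -0.07, in Mettl3 cKO from -0.57 to 0.11 and between the controls from -1.79 to 0.26.

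Some of the low factors spread widely between the 2 libraries of a group. Isl1, a LIM homeobox factor of motor neurons and heart, had 25 and 53 reads in Mettl3 control and 39 and 16 in Mettl3 cKO, with 41 and 46 in Mettl14 control, with 44 and 35 in Mettl14 cKO. Gsc, the organizer factor goosecoid, had 2 and 13 reads in Mettl14 control and 11 and 1 in Mettl3 cKO. Foxf1, a forkhead factor of visceral mesoderm, had 5 and 0 reads in Mettl14 control and 7 and 22 in Mettl3 control. None of these was called in a knockout.

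A list of 98 other developmental regulators, with 66 tested, had 5 called higher and 8 lower in Mettl14 cKO, where 18.0% and 22.4% of all genes tested were called. In Mettl3 cKO 9 were higher and 2 lower, where the shares of all genes were 15.1% and 5.78%. In Mettl14 cKO Zic5, a zinc finger factor of neural tissue, went from 23.3 ± 2.2 to 12.8 ± 0.814 CPM (-0.86 ± 0.10, edgeR adjusted p = 1.48e-12). In Mettl3 cKO Nr2f2, a nuclear receptor of mesenchyme and veins, went from 13.1 ± 0.719 to 19.1 ± 0.122 CPM (0.55 ± 0.10, edgeR adjusted p = 6.43e-06). The difference between the knockouts was called for 9 of the 66, 4 higher and 5 lower, against 12.7% and 20.5% of all genes tested.

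Genes whose products set or remove the bivalent marks were counted in the same way. The share of all genes called in either direction rose with abundance, in Mettl14 cKO from 7.48% in the lowest of the 10 abundance bins to between 65.1% and 83.2% in the top 3. In Mettl3 cKO it was 7.8% in the lowest bin and 34.6% to 52.7% in the top 3. Counts in lists of abundant genes have to be read against those shares. Of 34 Polycomb genes, all tested, 18 were lower and 2 higher in Mettl14 cKO (median -0.34), and 4 were lower and 11 higher in Mettl3 cKO (median 0.09). Ezh2, the H3K27 methyltransferase, went from 208 ± 7.97 to 106 ± 0.811 CPM in Mettl14 cKO (-0.97 ± 0.04, edgeR adjusted p = 4.84e-49). Epop, a PRC2 cofactor, fell by 1.00 in Mettl14 cKO (edgeR adjusted p = 3.11e-35) and rose by 0.53 in Mettl3 cKO (edgeR adjusted p = 3.15e-15). Of 17 tested H3K4 methyltransferase and H3K27 demethylase genes, 13 were lower and 1 higher in Mettl14 cKO, and 3 lower and 7 higher in Mettl3 cKO. Kdm6b, an H3K27 demethylase, fell from 64.8 ± 2.65 to 19.0 ± 0.775 CPM in Mettl14 cKO (-1.77 ± 0.07, edgeR adjusted p = 3.47e-47), and Kmt2d, an H3K4 methyltransferase, fell by 0.77 there (edgeR adjusted p = 9.44e-52) and rose by 0.31 in Mettl3 cKO (edgeR adjusted p = 8.39e-18). The relation of these changes to the factors was not tested.

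Over all genes tested 18.0% were higher and 22.4% lower in Mettl14 cKO, and 15.1% and 5.78% in Mettl3 cKO. Among abundant genes more were called, as given above for the top 3 bins. Of other markers, 7 of 16 tested primitive endoderm markers were higher in Mettl14 cKO and 0 lower, and 4 were higher and 1 lower in Mettl3 cKO. In the Mettl14 line Col4a1 went from 155 ± 4.66 to 320 ± 5.79 CPM, Hnf4a from 1.3 ± 0.116 to 2.59 ± 0.199 and Gata4 from 2.94 ± 0.63 to 2.99 ± 1.39. Of 17 tested neural cell markers, 2 were higher and 6 lower in Mettl14 cKO, with a median of 0.08. There Nefm, a neurofilament gene, went from 26.5 ± 0.0489 to 8.66 ± 0.36 CPM (-1.61 ± 0.11, edgeR adjusted p = 1.69e-27). Map2 went the other way, from 27.5 ± 0.241 to 45.9 ± 1.36 CPM (0.74 ± 0.07, edgeR adjusted p = 4.27e-20). In Mettl3 cKO 4 of the neural markers were higher and 3 lower. All 18 neural markers together summed to 491 and 492 CPM in Mettl14 control, with 445 and 451 in Mettl14 cKO, 437 and 433 in Mettl3 control and 459 and 460 in Mettl3 cKO. Of 10 tested mesoderm and muscle markers, 4 were higher and 2 lower in Mettl14 cKO and 1 was higher and 1 lower in Mettl3 cKO, and Hba-a1 was at 0 in every library.

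The exons of 15 factors share bases with another annotated gene, for 14 of them on the opposite strand, and for 4 the other gene had at least 1 CPM: Neurod1, Evx1, Hand2 and Meis1. For Evx1 and Hand2 that gene, Evx1os or Hand2os1, lies on the opposite strand, and reads on the shared bases cannot be told apart if strand was not used in counting. For Neurod1, which shares 201 exon bases with Cerkl (2.3 CPM), and Meis1, which shares 1029 with Gm37818 (1.02 CPM), it lies on the same strand, where strand does not separate the reads either, so these values are uncertain to that extent. The letters GGACT, a form of the sequence in which METTL3 and METTL14 place the mark, occurred in the longest annotated transcript of 48 of the 50 factors, 96.0%, with a median of 1.1 per kb. Of all 21877 protein-coding genes 87.6% held it, with a median of 1.01 per kb. Irx5 and Tbx2 had none.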

How the data were processed

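Nuclear RNA was isolated with Trizol, freed of ribosomal RNA with RiboMinus and turned into SMARTer stranded total RNA libraries, per the labels' protocols. The authors deposited raw read counts per gene, 1 table for each of 8 samples. The submitters' processing notes name HISAT2 2.1.0, Trimmomatic 0.38, CASAVA and HTSeq, with mm10. Annotation release, strand setting and treatment of multiply mapped reads: not given in the sources used here. Groups come from the sample titles.

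Gene IDs were matched without version to GENCODE M21 (GRCm38), which named 54409 of 54446 genes and not the other 37; 0 lines named no gene. Counts were fitted in edgeR 4.0.16 (R 4.3.3) after TMM scaling, with filterByExpr at a minimum count of 10 (21782 genes), robust glmQLFit and glmQLFTest on 8 libraries together (4 group means, so 4 residual degrees of freedom). Adjusted p-values are Benjamini-Hochberg over all genes tested, called under 0.05. CPM use TMM-scaled library sizes, and per kb values divide by annotated exon length. Each replicate was counted, since replicates differed by more than sampling noise, with a chi-square of 1.41 to 1.97 per degree of freedom. The common dispersion, edgeR's estimate of spread beyond counting noise, was 0.000571. Neither value tells separate cultures from technical repeats. The fit was tested on simulated data with a larger dispersion than the fitted one.

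The members and lists were chosen with earlier results of these data known. Every member may be named; members called in a comparison (the 12 with the smallest p where more were called) and the 8 most abundant are given with values, with up to 2 called genes of each other list per knockout. Not all of those genes are printed. Ratios with 1 to 3 reads in a group carry an exact interval. Alternatives were RLE and upper-quartile scaling, other filters, DESeq2 1.42.0, limma-voom (limma 3.58.1), a fit of the compared libraries alone, a replicate block and leaving out each library. The correlation of deviations between samples with the same replicate number was 0.0107 in the Mettl14 line and 0.0176 in the Mettl3 line. In the more abundant genes it was -0.0329 and 0.0722. Values near 0 show no pairing by number but cannot exclude it, since counting noise enters each deviation.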

Additional observations from a re-analysis of the deposited data

Results flagged for a closer look

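The change upon knockout differed between the Mettl14 and Mettl3 lines for 7 of the developmental factors, by edgeR's test of the Mettl14 change minus the Mettl3 change. The difference was -0.94 on the log2 scale for Olig2 (adjusted p = 3.93e-07), with Mettl14 cKO low. It was -1.18 for Twist1 (adjusted p = 1.58e-05), whose called change is the rise in Mettl3 cKO. It was -0.58 for Meis2 (adjusted p = 6.88e-06) and -0.40 for Sox1 (adjusted p = 0.0165), both lower in Mettl14 cKO. It was 0.62 for Meis1 (adjusted p = 0.00267) and 1.46 for Pax6 (adjusted p = 0.00645), whose called changes are falls in Mettl3 cKO. The fitted difference for Pax2 was 4.55 (adjusted p = 0.00221), a value that depends on the prior count because Mettl14 control had 0 and 1 reads. It was 3.70 to 7.07 when 1 library was left out, with the highest value without Mettl14 control library 2, which leaves a control of 0 reads. Pax2 lay below the 95th percentile of the silent receptor genes. In the same test 58 of the 211 tested receptor genes were called higher and 0 lower, with a median of 1.85. The median of all genes in the lowest abundance bin, which holds Pax2, was 1.29. The part of this background in the Pax2 difference was not tested.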

How the results depend on the processing

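With 2 libraries a group and few reads on many factors, calls near the threshold changed with tool and library, and the cause was not tested. Factors called higher in Mettl14 cKO went from 4 to 2 with no filter on low counts and to 0 with DESeq2. In Mettl3 cKO the 8 called higher became 5 with upper-quartile scaling and 2 with DESeq2. The 3 called lower there became 1 with DESeq2. Called higher in the difference were 3, and 1 with DESeq2. Between the controls 6 were higher, and 3 with upper-quartile scaling. Leaving out 1 library also changed which factors were called, and some called then were not called with all libraries. Over all genes DESeq2 called 2470 higher and 4181 lower in Mettl14 cKO, against 3921 and 4880, 1603 and 535 in Mettl3 cKO, against 3292 and 1260, and 1256 and 3319 in the difference, against 2777 and 4461. With the replicate number as a block the counts of called factors were 4 higher and 7 lower in Mettl14 cKO, 8 and 3 in Mettl3 cKO and 3 and 4 in the difference, so pairing by number moved none of them. The summed CPM of the 50 factors had a log2 ratio of 0.12 in Mettl3 cKO and 0.01 with upper-quartile scaling; between the controls it was -0.02, -0.24 with that scaling and -0.07 to 0.03 with a library left out. For the receptor sums upper-quartile scaling gave -0.91 and -2.07 in place of -0.80 and -1.85. Values near 0 changed sign. The median of the difference, -0.02, was 0.14 with upper-quartile scaling, 0.03 with a mean count filter and -0.04 to 0.02 with a library left out. Tbx18 in Mettl14 cKO, -0.01, was 0.04, 0.02 and 0.00 with upper-quartile scaling, the mean filter and limma-voom (-0.16 to 0.17 with a library left out), and Msx2 there was -0.02 to 0.35. In Mettl3 cKO Meis2 was -0.06 with upper-quartile scaling, and Olig2 0.00 with no filter (-0.24 to 0.04). In the difference Irx2 was 0.14 and 0.04 with upper-quartile scaling and the mean filter (-0.17 to 0.15), and Tbx15 -0.09 with no filter (-0.08 to 0.12). Between the controls Irx2 was 0.07 with no filter (-0.23 to 0.09), Olig2, -0.05 and not called, was 0.08 (-0.19 to 0.08) and was called at -0.27 with upper-quartile scaling (adjusted p = 0.0182), and Meis2 was -0.05 with that scaling. A library left out of a group of 2 leaves 1, which is then assumed to vary like the other groups.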
